A study of Mus musculus with 12 samples.

Results

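The 80 cytosolic ribosomal protein genes described here are the genes of the deposited liver table whose symbol is Rpl or Rps followed by a number, with or without 1 letter, or Rplp0, Rplp1 or Rplp2. They are 80 of the 20719 genes tested; 49 belong to the large subunit (Rpl and Rplp) and 31 to the small subunit (Rps). Where a symbol had several probe set lines, the line with the highest mean over the 12 arrays was taken. This rule used names and this overall level, and no difference between groups, but the set was chosen with earlier results of these data known.

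Each array read the liver RNA of 1 mouse, and 4 groups held 3 mice each. KO starved mice (S5, S6 and S7) and KO fed mice (F5, F6 and F8) came from breeding Albumin-Cre animals on a C57BL/6 background to mice with loxP sites around exon 9A of Lamp2, which encodes the lysosomal receptor of chaperone-mediated autophagy. WT starved mice (S3, S4 and the mouse coded 3) and WT fed mice (F1, F2 and F4) were labelled wild type, and the labels do not say whether they carried either allele. Starved mice had water but no food for 24 h, and fed mice ate standard chow; no ages were stated. The loxP sites flank exon 9A only, so the design does not remove the rest of Lamp2. Albumin-Cre is active in hepatocytes, and liver cells in which it is not active keep the exon. The comparisons ask what starvation and the loss of this receptor change in the liver.

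The cytosolic ribosome translates messenger RNA in every cell: the small subunit reads the message and the large subunit joins the amino acids. Most messages for its proteins begin with a 5′ terminal oligopyrimidine tract, a C followed by a run of C and T, through which the kinase mTORC1 controls how strongly they are translated when nutrients are plentiful or scarce. That control acts on the use of the messages, and an array measures only their amount. Liver is known to lose ribosomes during starvation, partly through autophagy.

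The region around the annotated transcription start was searched for runs of C and T, as a loose stand-in for this tract. RefSeq start windows on build GRCm38.p6 were found for 59 of the 80 members. A run of at least 8 C or T on the coding strand, reaching to within 5 bases of the annotated start, was present in 33.9% of these members (20 of 59), against 9.6% of 27025 genes with a window. Of the members with a window, 9 of 22 small subunit and 11 of 37 large subunit genes had it. Annotated starts can lie some bases from the true start, so a missing run says only that these letters are not at this position. A counted run need not begin with C or at the start. It can lie wholly upstream of the annotated start, as in Rps27l, so these shares are not shares of genes with the tract. The 9 windows printed here belong to members whose values are given later in the text; each has 30 bases, 5′ to 3′, with the annotated start as base 16. Capitals mark the longest C or T run that reaches to within 5 bases of the annotated start, where it has at least 6 bases; runs farther away are left in lower case, as in Rps15a and Rpl28. The last 2 sequences have no such run near the start.
Rps27, chr3:90213634-90213663, minus strand: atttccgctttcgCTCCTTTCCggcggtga
Rps27l, chr9:66946071-66946100, plus strand: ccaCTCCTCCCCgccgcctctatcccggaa
Rps21, chr2:180257364-180257393, plus strand: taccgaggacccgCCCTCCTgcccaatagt
Rps15a, chr7:118116133-118116162, minus strand: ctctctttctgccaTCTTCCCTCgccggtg
Rps6, chr4:86857353-86857382, minus strand: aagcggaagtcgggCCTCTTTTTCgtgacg
Rpl14, chr9:120571502-120571531, plus strand: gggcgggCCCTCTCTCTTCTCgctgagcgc
Rpl28, chr7:4792950-4792979, plus strand: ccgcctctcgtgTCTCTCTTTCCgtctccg
Rpl22, chr4:152325711-152325740, plus strand: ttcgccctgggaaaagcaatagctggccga
Rpl36a, chrX:134585639-134585668, plus strand: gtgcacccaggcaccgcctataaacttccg

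Signals are printed on the log2 scale of the deposited table, where 1 unit is a factor of 2. Signals of different probe sets cannot be read as relative amounts of their messages, and a low signal cannot be told from no expression. The median 95% confidence interval of a member reached 0.53 on either side of a difference between 2 groups, against 0.33 for all genes. In whole liver, fewer cells of a type and less RNA per cell cannot be told apart. The labelled tissue was checked against hepatocyte markers: all 10 listed genes were measured, and the log2 of their summed signal was 16.78 to 16.98 in KO starved, 16.63 to 16.92 in KO fed, 16.83 to 17.0 in WT starved and 16.59 to 16.95 in WT fed livers. Lamp2, read by a probe set whose exons are not known here, lay at 12.33, 12.56 and 12.60 in KO starved, 12.51, 12.81 and 12.49 in KO fed, 12.68, 12.49 and 12.54 in WT starved and 12.61, 12.24 and 12.25 in WT fed mice, so it checks neither the deletion nor the labels. The 12 arrays were not alike: on 6 of them gene values spread more widely than on the other 6, and the ribosomal protein genes moved with this, as described after the group comparisons.

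No ribosomal protein gene passed the test in any of the 7 contrasts fitted with limma at an adjusted p under 0.05. The contrasts were starved against fed in each genotype and averaged over both, KO against WT in each feeding state and averaged over both, and the interaction, which is the starvation difference of KO mice less that of WT mice. The 0 members called stand against 1.41% of all genes for starvation in WT, 1.02% for starvation in KO and 5.16% for averaged starvation. In each of the 4 contrasts that involve genotype 0.0% of all genes were called. Intervals were narrow enough to place every member's averaged genotype difference, and 79 of the 80 averaged starvation differences, within 2-fold either way. For the interaction this held for 44 members only.

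**Figure D1:**
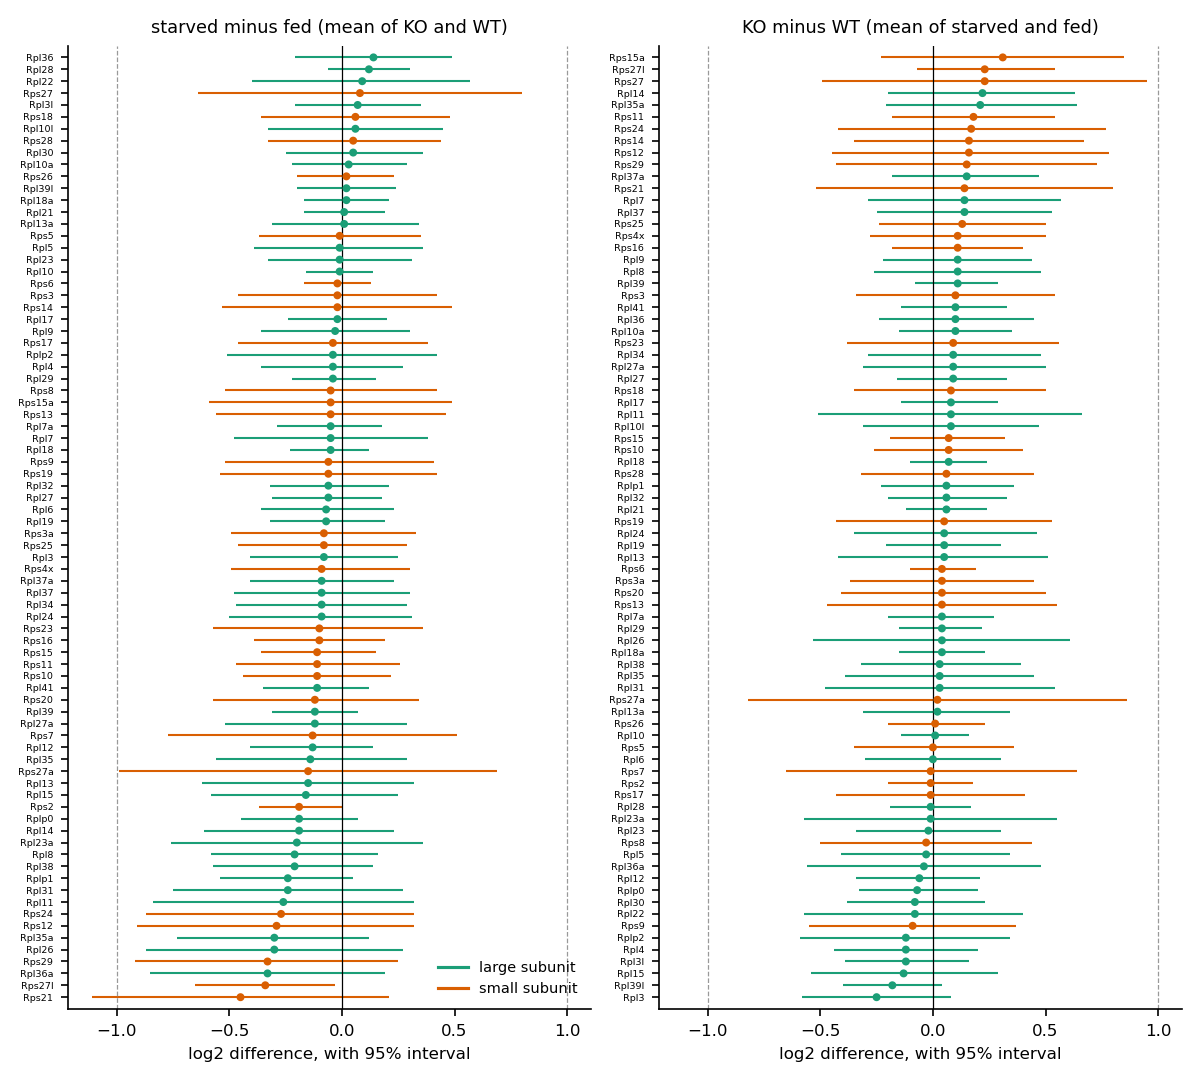
Log2 differences of the 80 genes with 95% confidence intervals, starved minus fed averaged over genotypes (left) and KO minus WT averaged over feeding states (right), each ranked from highest at the top; green is the large and orange the small subunit, and dashed lines mark 2-fold. Starvation differences run between 0.14 for Rpl36 and -0.45 for Rps21, and genotype differences between 0.31 for Rps15a and -0.25 for Rpl3.

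In WT livers the median difference between starved and fed mice was -0.16 for the large and -0.17 for the small subunit, against -0.01 for all genes. Lower values in starved mice were seen in 71 of 80 members and in 10592 of all 20719 genes. In KO livers the medians were 0.01 and 0.01, against -0.03 for all genes. There 43 members were higher and 37 lower, against 9043 and 11676 of all genes. Members varied together between mice of a group, as described below, so counts of members by direction do not add up separate observations. The within-group SD of an array's median was 0.332 for the large and 0.427 for the small subunit. At an unadjusted p under 0.05, 2 members were lower in starved WT mice, where 6.75% of all genes were; they were Rps27l and Rps2. The same 2 genes were the only members whose WT starved arrays all lay below the WT fed arrays, a pattern seen in 7.73% of all genes. In KO livers 0 members reached an unadjusted p under 0.05, against 9.32% of genes, and 0 had groups that did not overlap, against 16.5%.

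Rps27l encodes a close relative of the small subunit protein Rps27 and is known as a p53 target in human cells. It measured 12.56, 12.16 and 12.06 in KO starved, 12.57, 12.12 and 12.75 in KO fed, 11.93, 11.72 and 12.07 in WT starved, and 12.07, 12.42 and 12.62 in WT fed mice. The WT starved mice lay at or below every WT fed mouse, the closest pair level to 2 decimals, and the KO groups overlapped. Its starved minus fed difference was -0.46 in WT (SE 0.20, limma adjusted p = 0.364), -0.22 in KO (SE 0.20, adjusted p = 0.881) and -0.34 averaged (SE 0.14, adjusted p = 0.227). It was the only member with an unadjusted p under 0.05 for averaged starvation, where 9.59% of all genes were lower by that measure.

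Its partner Rps27, a zinc-binding protein of the small subunit, was among the most variable members. It measured 11.68, 10.79 and 10.65 in KO starved, 10.95, 9.94 and 11.31 in KO fed, 10.40, 10.24 and 11.11 in WT starved, and 9.74, 11.40 and 11.05 in WT fed mice. All 4 groups overlapped, and the averaged starvation difference of 0.08 (SE 0.33) had a limma adjusted p of 0.937. Rps2, a small subunit protein, measured 13.72, 13.47 and 13.45 in KO starved and 13.76, 13.45 and 13.74 in KO fed mice. In WT it measured 13.43, 13.44 and 13.55 in starved and 13.59, 13.84 and 13.78 in fed mice, a difference of -0.27 (SE 0.12, adjusted p = 0.392).

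The most negative differences for averaged starvation, none past the test, were those of the small subunit genes Rps21 (-0.45, SE 0.30), Rps27l and Rps29 (-0.33, SE 0.27) and of the large subunit gene Rpl36a (-0.33, SE 0.24). Rps21 measured 10.49, 9.57 and 9.37 in KO starved, 10.32, 9.19 and 10.49 in KO fed, 9.27, 9.31 and 9.68 in WT starved, and 9.25, 10.68 and 10.43 in WT fed mice. Its fed values ran between 9.19 and 10.68 and covered every starved value. The most positive were 0.14 for Rpl36 (SE 0.16), 0.12 for Rpl28 (SE 0.08), 0.09 for Rpl22 (SE 0.22) and 0.08 for Rps27. Rpl28 averaged 12.91 ± 0.08 in KO starved, 12.74 ± 0.16 in KO fed, 12.87 ± 0.04 in WT starved and 12.80 ± 0.16 in WT fed mice (SD, n = 3 each), and these groups overlapped.

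Differences between the genotypes were small too. Among fed mice the median KO minus WT difference was -0.04 for the large and -0.02 for the small subunit, against -0.01 for all genes. There 32 members were higher and 48 lower, against 9512 and 11207 of all genes. Among starved mice the medians were 0.13 and 0.18, against -0.03 for all genes. Higher values in KO were seen in 71 of 80 members and in 8482 of all 20719 genes. The interaction was above 0 for 75 of 80 members and for 9599 of all 20719 genes, with medians of 0.14 and 0.21 against -0.02 for all genes. These contrasts share arrays with each other and with the starvation contrasts, so their directions are not separate observations. The members varied together too, so a count such as 75 of 80 does not add up separate observations. At an unadjusted p under 0.05 there were 0 members in each genotype contrast, against 2.91% of all genes in fed mice, 3.59% in starved mice, 4.65% for the averaged genotype effect and 2.04% for the interaction.

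Groups that did not overlap were seen in 4 members between starved genotypes, Rpl14, Rpl18, Rpl8 and Rps15, all higher in KO, against 3.51% of all genes higher in KO. The last 3 are named because the count is small. Rpl14, a large subunit protein, measured 7.93, 7.42 and 7.50 in KO starved mice and 7.34, 7.19 and 7.21 in WT starved mice, a difference of 0.37 (SE 0.27, limma adjusted p = 1.0). In fed mice it measured 7.88, 7.21 and 7.85 in KO and 7.12, 8.25 and 7.38 in WT, and the groups overlapped. Between fed genotypes only Rpl39l did not overlap, lower in KO, against 5.36% of all genes.

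The most positive averaged KO minus WT differences, again none past the test, were 0.31 for Rps15a (SE 0.25), 0.23 for Rps27l (SE 0.14), 0.23 for Rps27 (SE 0.33) and 0.22 for Rpl14 (SE 0.19). Rps15a, a small subunit protein, averaged 9.83 ± 0.53 in KO starved, 9.88 ± 0.61 in KO fed, 9.52 ± 0.21 in WT starved and 9.57 ± 0.55 in WT fed mice (SD, n = 3 each), and its genotypes overlapped in both feeding states. The most negative KO minus WT differences were -0.25 for Rpl3 (SE 0.15), -0.18 for Rpl39l (SE 0.10), -0.13 for Rpl15 (SE 0.19) and -0.12 for Rplp2 (SE 0.21). Rpl3 lies near the site of peptide bond formation and Rplp2 is part of the stalk that recruits elongation factors.

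Mice of the same group differed more in these genes than in the median gene. The median member had a within-group SD of 0.33 and a range of 0.93 over the 12 arrays, against 0.19 and 0.66 for the median gene. The members varied together: their deviations from the group means correlated with the median of the other members at a median r of 0.96, and 76 of 80 had an r above 0.8, as did 10.3% of all genes. These r values are descriptions over 12 arrays that all members share. A single component held 92.5% of the members' within-group variance.

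**Figure D2:**
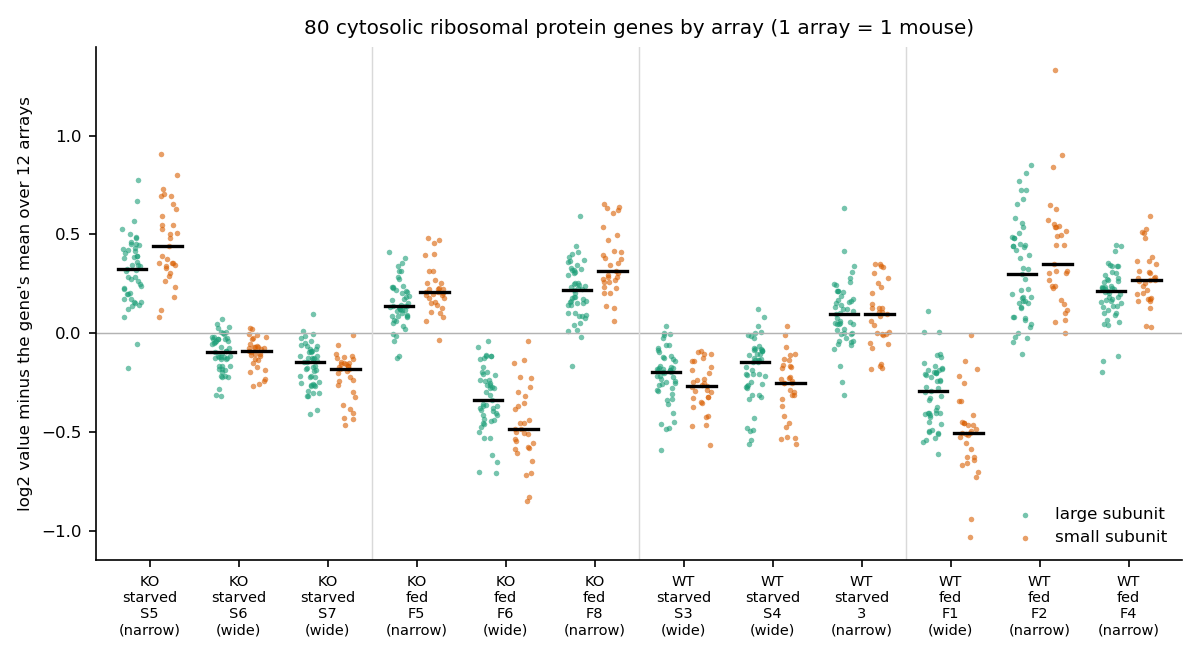
Each point is 1 of the 80 genes on 1 array, as its log2 value minus its own mean over 12 arrays, with large subunit genes in green, small subunit genes in orange and the median of each as a black line; wide or narrow under each array is the spread of all its gene values. Arrays of 1 group lie apart from each other: KO starved S5, KO fed F5 and F8, WT starved 3 and WT fed F2 and F4 lie above 0, and the other 6 below.

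The median of the 80 genes was 12.22, 11.73 and 11.63 in KO starved S5, S6 and S7, and 11.98, 11.43 and 12.11 in KO fed F5, F6 and F8. It was 11.67, 11.70 and 11.99 in WT starved S3, S4 and 3, and 11.46, 12.31 and 12.08 in WT fed F1, F2 and F4. The lowest and the highest array both came from fed mice, and all 4 groups overlapped. For the large subunit the array medians averaged 12.15 ± 0.30 in KO starved, 12.08 ± 0.41 in KO fed, 11.93 ± 0.23 in WT starved and 12.13 ± 0.36 in WT fed mice (SD, n = 3 each). For the small subunit they averaged 11.42 ± 0.44, 11.28 ± 0.48, 11.26 ± 0.20 and 11.33 ± 0.52 in the same groups. Of the 80 members, 68 were lowest in WT fed F1 or KO fed F6, and 66 were highest in WT fed F2 or KO starved S5.

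This pattern moved with a property of the whole array. The interquartile range of all gene values was 2.89 to 2.97 on 6 arrays, called wide here, and 2.47 to 2.81 on the other 6, called narrow. The wide arrays were KO starved S6 and S7, KO fed F6, WT starved S3 and S4 and WT fed F1, so each genotype had 2 wide arrays among its starved and 1 among its fed mice. Member medians were 11.43 to 11.73 on wide and 11.98 to 12.31 on narrow arrays. All 80 members were lower on wide arrays on average, as were 11922 of all 20719 genes. The median difference was -0.44 for the large and -0.66 for the small subunit, against -0.05 for all genes. In 57 members every wide array lay below every narrow one, against 6.33% of all genes. The classes were made from the arrays' own gene values, so these figures are a description.

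**Figure D3:**
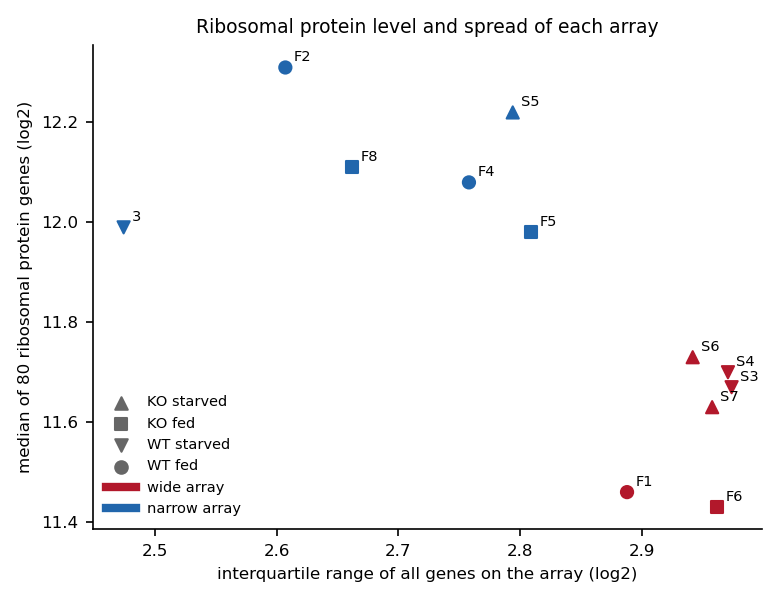
Each point is 1 array, with the interquartile range of all its gene values (log2) on the horizontal and the median of the 80 ribosomal protein genes (log2) on the vertical axis; shapes are the 4 groups and colours the wide and narrow arrays. The 6 wide arrays lie at medians of 11.43 to 11.73 and the 6 narrow arrays at 11.98 to 12.31, with all 4 groups in each.

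Some other measures moved with it. The log2 of the summed hepatocyte markers averaged 16.96 on wide and 16.72 on narrow arrays, and 7 of the 10 were higher on wide arrays. The averages of log2 sums are plain means over arrays, and the wide arrays held more starved than fed mice. Feeding state is therefore mixed into them: with averaged starvation the median difference of the hepatocyte list was 0.19. The median signal of 10 sinusoidal endothelial markers was 8.26 to 8.90 in KO starved, 8.15 to 8.99 in KO fed, 8.05 to 8.92 in WT starved and 8.01 to 9.02 in WT fed livers; 9 of the 10 were higher on wide arrays, while the log2 of their sum averaged 12.94 on wide and 12.86 on narrow arrays. For Kupffer cell and macrophage markers 7 of 9 were higher on wide arrays, and the log2 sums were 13.05 and 13.04. Of all 20719 genes 8797 were higher on wide arrays. Lower on wide arrays were 8 of 10 stellate cell, 5 of 7 cholangiocyte, 6 of 7 neutrophil and 5 of 9 red blood cell markers. Of all 20719 genes 11922 were lower there, and a count near that share is no result about a list. Of T and B cell markers 6 of 11 were higher on wide arrays. The log2 sums on wide and narrow arrays were 12.88 and 12.94 for stellate cell, 9.61 and 9.74 for cholangiocyte and 8.18 and 8.26 for neutrophil markers. They were 14.45 and 14.40 for red blood cell and 9.70 and 9.61 for T and B cell markers. The part of cell makeup, RNA quality or array processing in the pattern was not tested.

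The size of the swing differed between members. Rps27a, which is made as a fusion of ubiquitin and a small subunit protein, had the largest range, 2.27. It measured 11.17, 10.22 and 9.94 in KO starved, 10.58, 9.52 and 10.84 in KO fed, 9.90, 9.81 and 10.72 in WT starved, and 9.43, 11.70 and 10.61 in WT fed mice. The highest and lowest of these are both WT fed mice. Rps27 followed with a range of 1.94 and Rps7, a small subunit protein that can bind the p53 regulator Mdm2, with 1.62.

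The members with the highest mean signal varied far less. Rps6, the small subunit protein phosphorylated by S6 kinase downstream of mTORC1, had a mean of 13.79 and lay between 13.65 and 13.89 on all arrays. Rpl39, which lines the exit tunnel of the large subunit, had a mean of 13.77 and a range of 0.42, and Rps2 a mean of 13.60 and a range of 0.41. Rpl10, a protein added late to the large subunit, had the smallest range of all members, 0.20. Whether signal near the top of the array's scale limited these ranges was not tested.

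**Figure D4:**
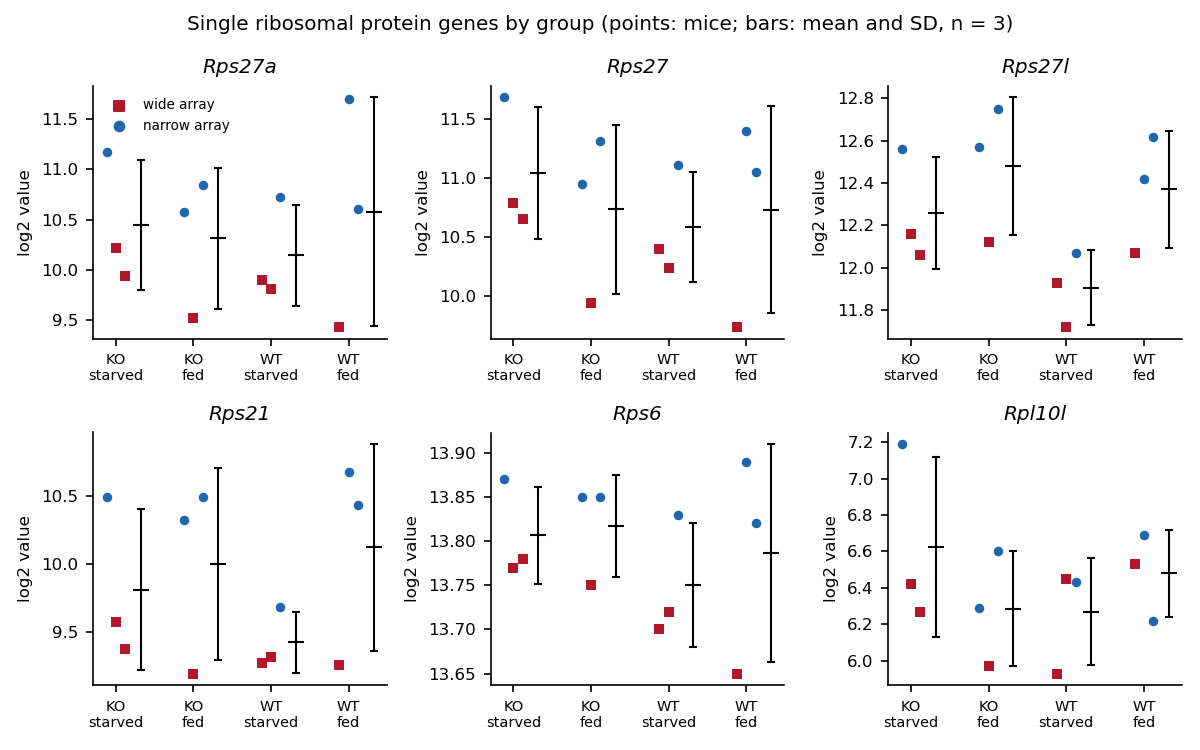
Log2 values of 6 genes in each mouse, with KO starved, KO fed, WT starved and WT fed groups running left to right; red squares are wide and blue circles narrow arrays, and black bars give the mean and SD of 3 mice. Axes differ between genes: Rps27a spans 2.27 and Rps6 0.24, and in both the wide arrays lie below the narrow ones.

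3 tissue-restricted relatives had the lowest signals, and followed the rest least. Rpl39l, known from testis, lay between 3.74 and 4.33, with a within-group r of 0.21 with the other members. Rpl3l, known from striated muscle, lay between 4.77 and 5.61 with an r of 0.31, and Rpl10l, a testis retrogene, between 5.93 and 7.19 with an r of 0.61. Rpl39l measured 3.74, 3.75 and 4.01 in KO starved, 3.91, 3.80 and 3.75 in KO fed, 3.95, 3.78 and 4.33 in WT starved, and 3.92, 4.08 and 3.97 in WT fed mice. Signals this low give little ground for reading a difference between groups.

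Members with a start run of at least 8 C or T, shown above for Rps27 and Rpl14 among others, were set beside those without. The 20 with a run had a median range of 0.93, a median within-group r of 0.95 and a median averaged starvation difference of -0.05. The 39 without had 0.89, 0.97 and -0.09 for the same measures. No test was made of these differences.

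Genes of the ribosome outside the naming rule were read in the same way, and limma called 0 of the 6 described here in any contrast. At an unadjusted p under 0.05 for averaged starvation there were 2, Rpl36al and Rpl7l1, both lower in starved mice, where 9.59% of all genes were lower by that measure. Rpsa, a small subunit protein also known as the laminin receptor, measured 11.62, 10.88 and 10.71 in KO starved, 11.60, 10.53 and 11.68 in KO fed, 10.69, 10.89 and 11.37 in WT starved, and 10.77, 12.28 and 11.56 in WT fed mice, and its groups overlapped. The averaged starvation difference was -0.38 for Rpsa (SE 0.29), 0.05 for Fau (SE 0.12), which encodes a small subunit protein fused to a ubiquitin-like one, and -0.12 for Gnb2l1 (SE 0.16), now called Rack1. Among relatives, Rpl36al differed by -0.36 (SE 0.11, limma adjusted p = 0.0999), Rpl7l1 by -0.22 (SE 0.08, adjusted p = 0.168) and Rpl22l1 by -0.45 (SE 0.47, adjusted p = 0.698). Rpl22l1 had the widest span of these, 6.61 to 9.32, both ends in fed mice.

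The starvation result depended on how the arrays were weighed. With a term for wide and narrow arrays, the median starved minus fed differences were -0.01 and 0.01 in WT and 0.16 and 0.21 in KO for the large and small subunit, and 0.07 and 0.12 averaged. Rps27 was then called higher in starved KO mice (0.67, SE 0.16, limma adjusted p = 0.0311), where 1.96% of all genes were. Rps27 (0.45, SE 0.12, adjusted p = 0.0242) and Rpl36 (0.30, SE 0.09, adjusted p = 0.0431) were called higher for averaged starvation, where 4.73% of all genes were. The wide and narrow classes were made from the gene values of these same arrays, so these calls are a description.

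With limma's array weights, which count arrays far from their group for less, members were called lower instead: 19 in WT, 22 in KO and 56 for averaged starvation. All genes called lower in that fit made up 13.9%, 20.4% and 25.8%. No member was called higher there, against 13.2%, 16.5% and 20.0% of all genes. The weights were lowest, between 0.206 and 0.434, for WT starved 3, KO fed F6, WT fed F1, WT fed F2 and KO starved S5, and highest for KO fed F5, at 6.14. Low weight thus fell on the single narrow starved and the single wide fed array of each genotype, and on F2; the starved arrays of high weight were wide and the fed arrays of high weight narrow.

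Within the 6 wide arrays alone, Rps27 (0.68), Rpl22 (0.51) and Rps28 (0.44) were called higher for averaged starvation, where 2.76% of all genes were. That fit had a single fed array per genotype, taken to vary like the starved ones, and classes made from the same gene values. These calls are therefore no test result, and only the differences are to be read. Rps28 is named because it was called there. The 6 narrow arrays held a single starved array per genotype, and the median difference within them was -0.02 for the large and 0.00 for the small subunit. In WT, the wide arrays, with F1 as the only fed mouse, gave medians of 0.11 and 0.24. The narrow arrays, with the mouse coded 3 as the only starved mouse, gave -0.17 and -0.24. The direction in WT thus also differed between the classes, with a single mouse on a side of each comparison.

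Some genes around the ribosome passed the test with averaged starvation, in which 2.32% of all genes were called higher and 2.84% lower. Eif4ebp3, a member of the 4E-BP family that blocks cap-dependent initiation, measured 11.60, 11.06 and 10.40 in KO starved, 9.00, 8.70 and 8.24 in KO fed, 10.77, 12.35 and 12.07 in WT starved, and 9.42, 9.63 and 8.78 in WT fed mice. Every starved mouse lay above every fed one. It rose by 2.37 in KO (SE 0.42, limma adjusted p = 0.0211) and 2.45 in WT (SE 0.42, adjusted p = 0.0183). With Sesn2, a stress-induced inhibitor of mTORC1 that rose by 0.68 averaged (SE 0.15), it made 2 of 36 genes of the mTORC1 pathway that rose, a share to be read against 2.32% of all genes; 0 fell, and the list's median was 0.04. Of the 36 genes 24 were higher on wide arrays, against 8797 of all 20719 genes.

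**Figure D5:**
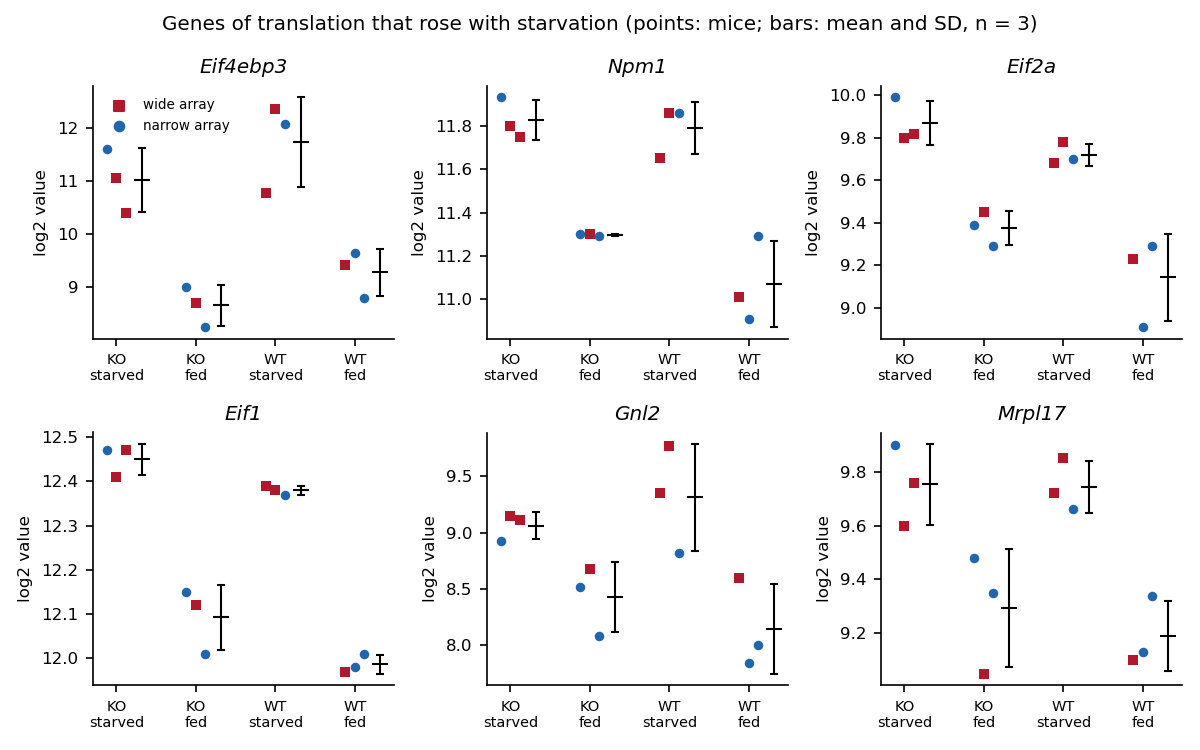
Log2 values in each mouse of 6 genes that rose with averaged starvation, with KO starved, KO fed, WT starved and WT fed groups running left to right; red squares are wide and blue circles narrow arrays, and black bars give the mean and SD of 3 mice. Starved mice lie above fed mice of the same genotype in all 6 genes, which were chosen because they rose. Of all 20719 genes this held for 1091 in WT and 1370 in KO.

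Of 24 elongation factor and other 5′ tract genes 3 rose and 0 fell, with a list median of 0.26, against 2.32% of all genes called higher and a median of -0.02. They were Npm1, a nucleolar chaperone of ribosome assembly (0.63, SE 0.08, limma adjusted p = 0.00145), the RNA-binding protein Hnrnpa1 (0.48, SE 0.08) and the initiation factor Eif4b (0.45, SE 0.10). Of 26 initiation factors 2 rose and 0 fell (median 0.20): Eif2a by 0.53 (SE 0.08) and Eif1, which guards start codon choice, by 0.37 (SE 0.06). Of 62 ribosome biogenesis factors 2 rose and 0 fell (median 0.17): the nucleolar GTPase Gnl2 by 0.90 (SE 0.18) and Eif6, which keeps new large subunits from joining, by 0.36 (SE 0.09). Of 19 genes of RNA polymerase I transcription Taf1b alone rose, by 0.33 (SE 0.08), and of 16 p53 targets Plk3 alone, by 1.65 (SE 0.27), with 0 falling in either list. Beside the 2.32% of all genes called higher, counts of 1 to 3 genes in lists of this size are no result about the lists. On wide arrays 11 of the 24 elongation and 5′ tract genes, 17 of the 26 initiation factors, 41 of the 62 biogenesis factors, 9 of the 19 polymerase I genes and 7 of the 16 p53 targets were higher than on narrow ones. Of all 20719 genes 8797 were higher on wide arrays. The part of array spread in the list medians was not tested.

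The mitochondrial ribosome, which makes the few proteins encoded in mitochondrial DNA, was set beside the cytosolic one. The number of its genes called, 4 of 75, lay near the 5.16% of all genes called. With averaged starvation 1 rose, Mrpl17 by 0.50 (SE 0.09), and 3 fell, Mrpl1 by 0.49 (SE 0.10), Mrpl49 by 0.38 (SE 0.09) and Mrps27 by 0.46 (SE 0.12) on the log2 scale. The list's median was -0.21, against -0.02 for all genes. On wide arrays 66 of the 75 were lower, against 11922 of all 20719 genes. The genotype contrasts and the interaction called 0.0% of all genes, and so none of these.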

How the data were processed

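Liver RNA of 12 mice was read on Affymetrix whole-transcript arrays, 1 per mouse. The deposited values are log2 expression values made by the authors with RMA and oligo, per the submitters' processing notes, which also name limma; RMA corrects background, normalizes arrays by quantiles and summarises probe sets. For the array model, tool versions and genome build, nothing was stated. The 2 deposited tables agreed in all 347328 cells. Of 28944 lines 5132 had no symbol; the line with the highest mean was kept for each of 20719 symbols. The 80 members had 397 lines: 15 members had 1 line, and 4 (Rpl17, Rpl5, Rpl9 and Rps19) had lines of both signs for averaged starvation. A fit of all named lines called 0 member lines for averaged starvation, where 512 of 23812 lines were called higher and 626 lower. Processed pseudogenes can share probes with members, so their signals are uncertain to that extent.

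Tests used limma 3.58.1 in R 4.3.3: lmFit and eBayes on all genes, 4 group means, no covariate, 8 residual and 3.384 prior degrees of freedom, Benjamini-Hochberg adjustment over all genes of a contrast. Precision is limited by the number of arrays. The script was tested on simulated data. Members, lists and alternatives were chosen with earlier results of these data known. Named members were those past the threshold, the 4 largest rises and falls in both averaged contrasts, the 3 highest and lowest means, the 3 largest ranges and the paralogs with their partners; of each pathway list up to 4 called genes were named. Title numbers shared by a starved and a fed mouse of 1 genotype were checked for pairing: deviations correlated at -0.172 for F4 and S4, 0.454 for F5 and S5 and 0.532 for F6 and S6. F5 and S5 were both narrow and F6 and S6 both wide, while F4 was narrow and S4 wide. These correlations therefore cannot tell pairing from array spread. The main fit did not take the numbers as pairs, and the replicate block among the alternatives took them as blocks. One gene that the rule for named genes covers is not reported here. Figures were drawn with matplotlib 3.10.9.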

Additional observations from a re-analysis of the deposited data

How the results depend on the processing

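Among 26 alternatives, 12 of which left out 1 array, 3 gave a called member. They were array weights, array spread as a block and the wide arrays alone. Array weights called 19 members lower for starvation in WT, 22 in KO and 56 averaged, where 13.9%, 20.4% and 25.8% of all genes were. Array spread as a block called 1 member higher in KO and 2 averaged, where 1.96% and 4.73% of all genes were. The wide arrays alone held a single fed array per genotype, so their calls are no test result and no p-values are given for them. The cause of these shifts was not tested. Leaving out each array in turn called 0 members in every contrast. Of all 20719 genes these fits called 285 to 839 higher and 340 to 769 lower for averaged starvation. The median difference for starvation in WT then lay between -0.33 and -0.04 for the large and -0.42 and 0.01 for the small subunit. In KO it lay between -0.16 and 0.11 and between -0.21 and 0.15, and averaged between -0.17 and -0.02 and between -0.20 and 0.01. KO minus WT lay between -0.22 and 0.11 and between -0.29 and 0.22 in fed, between -0.01 and 0.23 and between -0.02 and 0.31 in starved mice, and between -0.04 and 0.14 and between -0.04 and 0.20 averaged; the interaction lay between -0.01 and 0.36 and between -0.02 and 0.47. With the replicate block, at a consensus correlation of 0.483, 0 members were called. Of all 20719 genes that fit called 994 higher and 1234 lower for averaged starvation. Its WT starvation medians were -0.20 and -0.25, those in KO 0.08 and 0.10. Cyclic loess gave averaged starvation medians of -0.09 and -0.11. Over all alternatives other than leaving out 1 array, the averaged starvation medians ran wider. They lay between -0.27 and 0.15 for the large and between -0.36 and 0.28 for the small subunit. With 3 mice a group, differences well under the members' intervals could not be seen.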
